A study of Mus musculus with 8 samples.

Results

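The olfactory receptor genes of mouse chromosome 10 were described here: the genes of the deposited count table whose symbol starts with Olfr and whose chromosome is 10. They numbered 67 of the 1110 olfactory receptor genes and of the 25913 genes in all. The RNA was that of dissected olfactory epithelium of C57BL/6J mice at an age of 40 weeks, in a study of Igf1r, a receptor for insulin-like growth factor, in olfactory sensory neurons. The name OMP in the labels points to the olfactory marker protein gene, which is active in mature olfactory sensory neurons. Groups are named by the library titles: 4 libraries are titled IGF1R_flfl (replicates 1, 2, 13 and 3) and 4 are titled OMP_IGF1R (replicates 11, 12, 17 and 18). In their genotype labels, however, libraries titled IGF1R_flfl are OMPIGF1 (KO) and libraries titled OMP_IGF1R are OMPflfl (Ctrl), which goes against the titles. Fold changes are therefore of the libraries titled OMP_IGF1R over the libraries titled IGF1R_flfl, and no genotype was assigned from the values. No label ties a library to an animal of its own. The p-values therefore cover only the spread between these libraries, part of which may be technical. Values by library are given in the order 1, 2, 13 and 3 under the IGF1R_flfl title and 11, 12, 17 and 18 under the OMP_IGF1R title.

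Olfactory receptors are G protein-coupled receptors that bind odorants on the cilia of olfactory sensory neurons. Each mature neuron transcribes a single receptor gene, from a single allele, and its choice is drawn from genes that lie in clusters and are expressed in zones of the epithelium. The level of a receptor in whole epithelium therefore follows both how many neurons chose it and how much RNA each holds, and in bulk tissue fewer cells and less RNA per cell cannot be told apart.

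The 67 genes lay in 2 clusters, split wherever the gap exceeded 1 Mb. Cluster 1 held 9 genes from Olfr1357 to Olfr57 (chr10:78611669-79035802, GRCm38, 0.424 Mb), and cluster 2 held 58 genes from Olfr9 to Olfr827 (chr10:128989849-130211149, 1.221 Mb). A gap of 50.0 Mb separated them. In the deposited file 63 of the 67 genes spanned less than 1200 bp, with a median span over all 67 of 948 bp, close to a receptor's coding sequence. The exons of the 65 genes found by identifier in GENCODE M21 had a median length of 3023 bp, so the deposited bounds leave out much of the annotated exon length.

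Several of these genes are near copies of each other, which bears on how far their counts can be kept apart. Coding sequences were found for 65 genes (843 to 1065 bases), and over the 2080 pairs the median identity was 61.8%. At 95% identity or more there were 18 pairs. For 40 of the 65 genes, at least 1 stretch of 100 bases, the length of a read, was also present in the coding sequence of another receptor. Among the 6 genes called below, Olfr8 shared 31.7% of its 100-base stretches, Olfr824 45.9% and Olfr801 2.33%, while Olfr1356, Olfr1353 and Olfr821 shared none. How reads that match several genes were counted is not given in the sources used here.

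The pair Olfr824 and Olfr823 shows how little sequence separates a gene that was called from a copy that was not. Their coding sequences were 98.7% identical, with 12 mismatches over 948 bases. The stretch of 120 bases with most differences is given, coding bases 233 to 352, on the minus strand at chr10:130126704-130126823 for Olfr824 and chr10:130112437-130112556 for Olfr823 (GRCm38, GENCODE M21). Capitals mark the 6 differing positions.
Olfr824: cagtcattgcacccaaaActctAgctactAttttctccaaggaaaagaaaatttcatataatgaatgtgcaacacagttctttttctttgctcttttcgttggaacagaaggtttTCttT
Olfr823: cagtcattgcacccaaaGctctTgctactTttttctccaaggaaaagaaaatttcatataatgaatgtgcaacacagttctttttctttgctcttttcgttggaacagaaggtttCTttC

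The second set is Olfr8, the gene with the largest fall, and its copies Olfr1354 and Olfr1355 in cluster 1. Olfr8 was 98.2% identical to Olfr1354, with 17 mismatches over 933 bases, and 98.0% identical to Olfr1355. The stretches are coding bases 310 to 429 on the plus strand, at chr10:78955516-78955635 for Olfr8, chr10:78917151-78917270 for Olfr1354 and chr10:78879483-78879602 for Olfr1355. Capitals mark the 6 positions at which at least 1 of the 3 differs.
Olfr8: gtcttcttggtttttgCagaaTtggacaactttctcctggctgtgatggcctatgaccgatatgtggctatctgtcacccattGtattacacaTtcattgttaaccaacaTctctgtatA
Olfr1354: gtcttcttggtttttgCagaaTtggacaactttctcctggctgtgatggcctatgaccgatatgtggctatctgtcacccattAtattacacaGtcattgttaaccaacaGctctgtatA
Olfr1355: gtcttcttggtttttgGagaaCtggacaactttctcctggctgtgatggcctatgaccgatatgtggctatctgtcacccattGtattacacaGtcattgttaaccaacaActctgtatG

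Windows before the transcription start were taken from the RefSeq table (GRCm38.p6), which matched 52 of the genes by symbol. Only 3 of these RefSeq starts, those of Olfr1357, Olfr1355 and Olfr1353, lay more than 100 bases before the coding start. All 3 lie in cluster 1. The 250 bases upstream of Olfr1353, which was called lower, and of Olfr1357, which was not called, are given side by side. Capitals mark matches on either strand to TAATNA, a core bound by homeodomain factors such as Lhx2, and to CCCNNGGG, a core bound by Ebf factors. The Olfr1353 window lies on the plus strand (chr10:78963059-78963308) and the Olfr1357 window on the minus strand (chr10:78618075-78618324).
Olfr1353: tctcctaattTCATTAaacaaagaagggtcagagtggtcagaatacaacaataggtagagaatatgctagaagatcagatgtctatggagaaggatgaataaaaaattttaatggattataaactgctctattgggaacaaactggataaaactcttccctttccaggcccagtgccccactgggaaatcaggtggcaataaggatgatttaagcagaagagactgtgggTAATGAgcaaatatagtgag
Olfr1357: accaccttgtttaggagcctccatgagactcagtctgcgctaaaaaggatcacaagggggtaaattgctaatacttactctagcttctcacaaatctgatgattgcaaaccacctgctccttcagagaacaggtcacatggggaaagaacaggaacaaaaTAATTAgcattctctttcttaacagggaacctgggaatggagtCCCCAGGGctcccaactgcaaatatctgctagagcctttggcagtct
The Olfr1353 window held 2 matches to TAATNA and 0 to CCCNNGGG, and the Olfr1357 window held 1 of each. The window of Olfr1355, a gene that was not tested, is not printed and also held 2 and 0. Of the 32851 RefSeq windows of the same length, 24.3% held TAATNA and 11.8% held CCCNNGGG. These matches are descriptions of the letters, not of binding.

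Total counts were 18802471 to 27793375 per library, of which 1722 to 3340 fell on the chromosome 10 receptors, so most of these genes rest on few reads. Of the 67 genes, 54 passed the filter on low counts, with a median over genes of 30.9 reads per library and a range of 9.38 to 203. The other 13 had at most 8.5 reads on average, and 3 of them, Olfr779 and the 2 rows named Olfr247, had 0 reads in every library. Expression is given as CPM, a gene's count scaled to the effective size of its library. Igf1r itself measured 72.9, 55.5, 67.9 and 69.9 CPM under the IGF1R_flfl title against 49.6, 43.9, 34.5 and 40.5 CPM under the OMP_IGF1R title. It was lower in the libraries titled OMP_IGF1R (log2 fold change -0.66, SE 0.116, edgeR adjusted p = 0.0117), and so was Omp, whose means were 5386 ± 989 and 1969 ± 224 CPM (SD, n = 4; -1.45, edgeR adjusted p = 0.00179).

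Of the 54 tested chromosome 10 receptors, 6 were called lower in the libraries titled OMP_IGF1R, 0 were called higher and 48 were not called (edgeR, adjusted p under 0.05 over all genes). The 6 make 11.1%, beside 5.37% of all 17381 tested genes called lower and 2.83% called higher. At an unadjusted p under 0.05 there were 14 members, 14 with a negative and 0 with a positive estimate. Of all 17381 tested genes 4083 had such a p, 14.1% with a negative and 9.35% with a positive estimate. DESeq2, which gave an adjusted p for 50 members, called 6 lower and 0 higher, beside 7.98% lower and 4.64% higher of its 16847 genes. Limma voom called 7 of 54 lower and 0 higher, beside 6.97% and 3.67% of all genes. The estimate was negative for 42 of the 54 (77.8%), against 52.5% of all tested genes, and the median log2 fold change was -0.30, against -0.01 over all tested genes. Groups did not overlap for 12 members on the lower side, beside a background of 10.3%, and for 1, Olfr807, on the higher side, beside 6.57%.

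Receptors on other chromosomes had values on the same side: 116 of 821 tested were called lower (14.1%), 5 were called higher, and their median log2 fold change was -0.33. Scaling the libraries to the summed counts of those receptors in place of all genes turned the direction of the chromosome 10 median to 0.19, while the median of all genes moved to 0.49. Those receptors themselves summed to 3060 ± 288 CPM in IGF1R_flfl and 2159 ± 144 CPM in OMP_IGF1R (SD, n = 4), a ratio of 0.706. Their own median in that scaling is not given here, so 0.19 does not place the chromosome 10 receptors above them. In that scaling 1 member, Olfr8, was called lower and 5 members, Olfr771, Olfr777, Olfr807, Olfr823 and Olfr826, were called higher, beside 0.863% and 72.5% of all genes. No member was called higher in any other setting that was run.

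The sum over the 67 genes was 101, 121, 119 and 132 CPM under the IGF1R_flfl title against 87.9, 78.3, 100.1 and 108 CPM under the OMP_IGF1R title. Group means were 118 ± 13.2 and 93.5 ± 13 CPM (SD, n = 4), a ratio of 0.79, and the groups overlapped, since OMP_IGF1R 18 lay above IGF1R_flfl 1. For all receptors the means were 3178 ± 292 and 2252 ± 152 CPM, a ratio of 0.709. Chromosome 10 genes thus took 3.13, 4.19, 3.91 and 3.71% of all receptor counts under the IGF1R_flfl title against 3.89, 3.77, 4.09 and 4.83% under the OMP_IGF1R title. The lowest share was in IGF1R_flfl 1 and the highest in OMP_IGF1R 18, and the other 6 libraries of both groups lay between them.

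**Figure D1:**
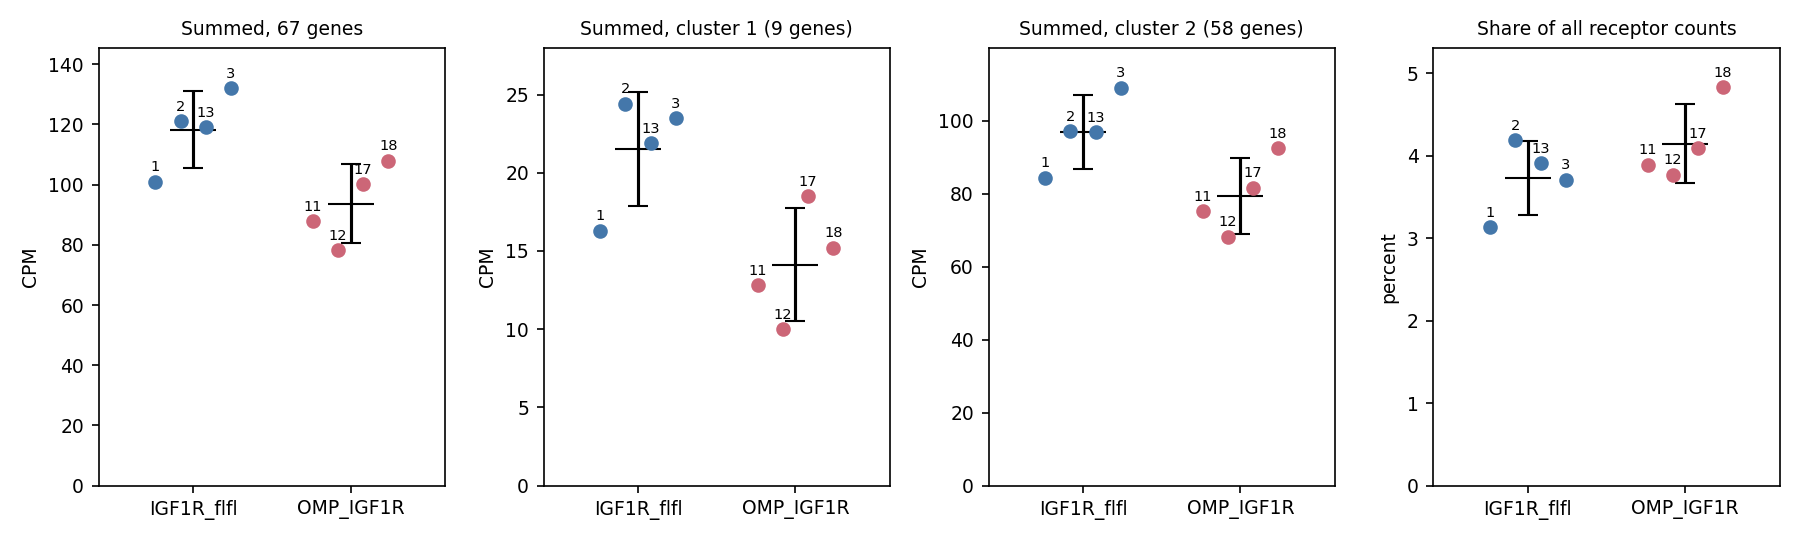
Summed CPM of all 67 genes, of cluster 1 and of cluster 2, and the percentage of all receptor counts that fell on the 67 genes, for each library (points, numbered by replicate), with the group mean and SD (bars, n = 4). The sum over the 67 genes had a group mean of 118 CPM in IGF1R_flfl and 93.5 CPM in OMP_IGF1R, while the share of receptor counts overlapped widely between groups.

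Cluster 1 held 3 of the 6 calls. Of its 7 tested genes, 3 were called lower and all 7 had a negative estimate, with a median log2 fold change of -0.96. In cluster 2, 3 of 47 were called lower (6.38%), 35 of 47 were negative and the median was -0.23. Beside these stand 5.37% called lower among all tested genes and 14.1% among receptors on other chromosomes. The share called in cluster 2 was thus near that of all genes. The difference between the clusters was not tested. Cluster 1 summed to 21.5 ± 3.62 CPM in IGF1R_flfl and 14.1 ± 3.61 CPM in OMP_IGF1R (SD, n = 4), a ratio of 0.656, and cluster 2 to 96.8 ± 10.1 and 79.3 ± 10.3 CPM, a ratio of 0.82.

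**Figure D2:**
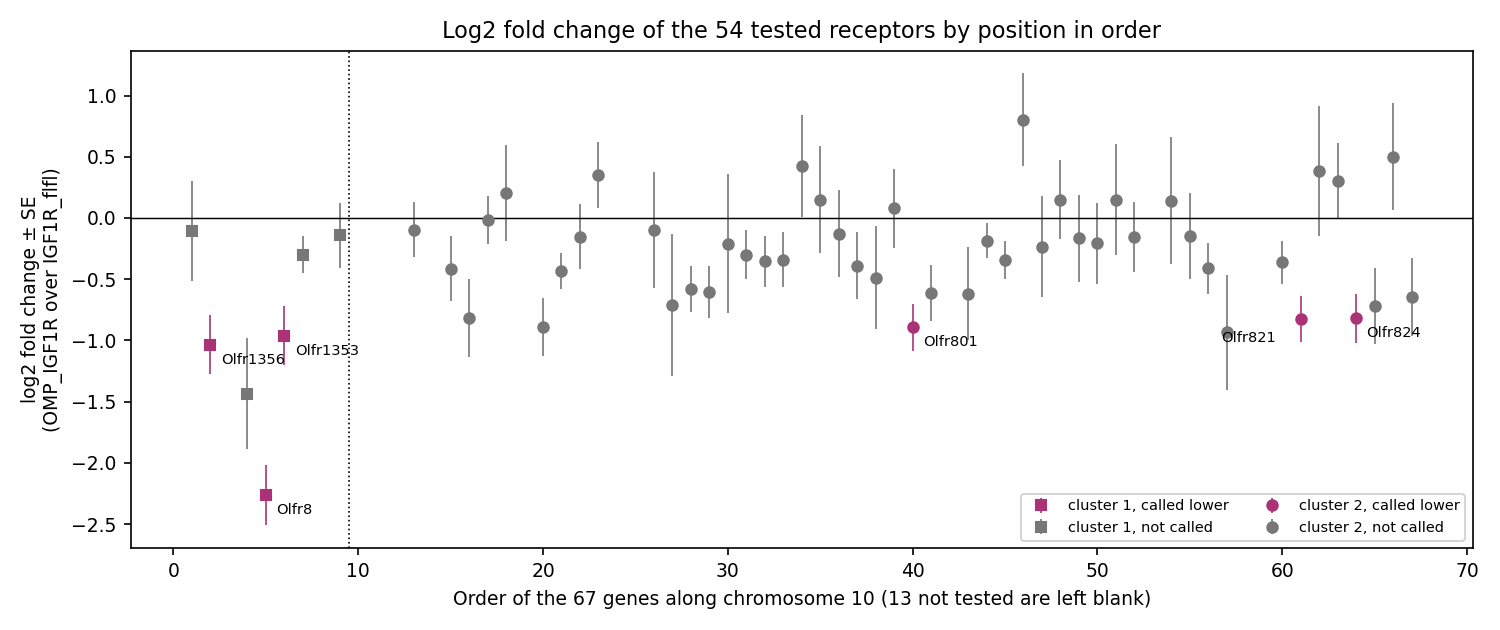
Log2 fold change (OMP_IGF1R over IGF1R_flfl) with its SE for the 54 tested genes, by their order among the 67 genes along chromosome 10. Squares are cluster 1 and circles cluster 2, split by the dotted line, and the 6 called genes are coloured and named. All 7 squares lie below 0, and the called genes of cluster 2 lie among genes with values on both sides of 0.

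Olfr8 had the largest fall. It measured 0.833, 1.14, 1.09 and 0.872 CPM under the IGF1R_flfl title against 0.204, 0.188, 0.221 and 0.192 CPM under the OMP_IGF1R title. The groups were far apart, and the 4 low libraries differed little from each other. In reads, the low libraries held 4 or 5 reads each and the others 22 to 30. At so few reads the closeness of the low libraries is no measure of precision. The log2 fold change was -2.26 (SE 0.247, edgeR adjusted p = 0.00278), and Olfr8 was called in all 8 fits that left out a library (adjusted p 0.00476 to 0.0159). The filter of at least 1 CPM in 4 libraries left it out of the test. In the authors' deposited table Olfr8 had a log2 fold change of -0.85 and an unadjusted p of 1.271e-06, but its adjusted p was NA.

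Olfr1354, next to Olfr8 and its near copy, was more abundant and more variable. It measured 5.07, 8.34, 5.77 and 3.85 CPM under the IGF1R_flfl title against 0.663, 1.24, 3.41 and 3.15 CPM under the OMP_IGF1R title. The groups did not overlap, but OMP_IGF1R 11 and 12, at up to 1.24 CPM, lay well below OMP_IGF1R 17 and 18, at 3.15 CPM or more. Its log2 fold change of -1.43 (SE 0.453) did not pass the threshold in edgeR (adjusted p = 0.0896), and did in DESeq2 (adjusted p = 0.0179) and in limma voom (adjusted p = 0.0456). Reads of Olfr1354 were 6.09, 7.3, 5.29 and 4.41 times those of Olfr8 under the IGF1R_flfl title against 3.25, 6.6, 15.4 and 16.4 times under the OMP_IGF1R title, so the 2 copies did not keep 1 ratio. Olfr1355, the other copy, had 3.25 reads on average and was not tested.

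Olfr1356, also in cluster 1, measured 1.27, 1.30, 2.00 and 1.23 CPM under the IGF1R_flfl title against 0.51, 0.716, 0.752 and 0.806 CPM under the OMP_IGF1R title. IGF1R_flfl 13 was high among its group, and the groups did not overlap. The log2 fold change was -1.04 (SE 0.241, edgeR adjusted p = 0.031). It was called in 2 of the 8 fits that left out a library, those without IGF1R_flfl 2 or 3, and leaving out each of the other 6 gave an adjusted p of 0.054 to 0.0852. Olfr1353 measured 1.77, 2.78, 2.45 and 2.02 CPM under the IGF1R_flfl title against 0.969, 0.867, 1.64 and 1.15 CPM under the OMP_IGF1R title, where OMP_IGF1R 17 came close to IGF1R_flfl 1. Its log2 fold change was -0.96 (SE 0.242, edgeR adjusted p = 0.0412), and the call held in 1 of the 8 such fits, that without OMP_IGF1R 17. Leaving out each of the other 7 libraries gave an adjusted p of 0.0514 to 0.117.

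The remaining genes of cluster 1 gave smaller estimates. Olfr1352, whose deposited span overlaps a long noncoding RNA gene on the other strand in GENCODE M21, had a mean of 4.47 ± 0.676 CPM in IGF1R_flfl and 3.62 ± 0.352 CPM in OMP_IGF1R (SD, n = 4; log2 fold change -0.30, edgeR adjusted p = 0.263). Olfr1357, at the start of the cluster, ranged from 2.53 to 8.41 CPM in IGF1R_flfl and from 2.22 to 6.81 CPM in OMP_IGF1R, and its estimate was -0.11 (edgeR adjusted p = 0.907). Olfr57, at the end, ranged from 0.978 to 2.34 and from 1.17 to 1.65 CPM, with an estimate of -0.14 (edgeR adjusted p = 0.793). Both overlapped between groups, and both changed sign in some of the alternative fits. Olfr1351 had 3.75 reads on average and was not tested.

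In cluster 2 the smallest adjusted p belonged to Olfr801. It measured 4.53, 4.76, 3.72 and 4.2 CPM under the IGF1R_flfl title against 1.53, 2.30, 2.88 and 2.53 CPM under the OMP_IGF1R title. Every IGF1R_flfl library lay above every OMP_IGF1R library, and OMP_IGF1R 11 was the lowest. The log2 fold change was -0.89 (SE 0.194, edgeR adjusted p = 0.0245). The call held without IGF1R_flfl 2, IGF1R_flfl 13, OMP_IGF1R 11 or OMP_IGF1R 17, and leaving out each of the other 4 libraries gave an adjusted p of 0.0508 to 0.0728.

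Olfr821 measured 2.97, 2.67, 3.59 and 2.97 CPM under the IGF1R_flfl title against 1.22, 1.77, 1.77 and 2.07 CPM under the OMP_IGF1R title, again without overlap (log2 fold change -0.83, SE 0.189, edgeR adjusted p = 0.0294). Its call held in 1 of the 8 fits that left out a library, that without IGF1R_flfl 2, and the other 7 gave an adjusted p of 0.0506 to 0.0789. Olfr824 measured 1.38, 1.56, 0.999 and 1.27 CPM under the IGF1R_flfl title against 0.714, 0.754, 0.752 and 0.73 CPM under the OMP_IGF1R title. Its OMP_IGF1R libraries lay below all others (log2 fold change -0.82, SE 0.199, edgeR adjusted p = 0.0361). They held 14, 20, 17 and 19 reads, and at so few reads their narrow range in CPM is no measure of precision. The call of Olfr824 held in 1 of the 8 fits, that without IGF1R_flfl 13, and the other 7 gave an adjusted p of 0.0718 to 0.102. DESeq2 gave Olfr824 an adjusted p of 0.0809.

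Counted over all members, leaving out a library gave fewer calls each time. There were 4 members called lower without IGF1R_flfl 2, 3 without IGF1R_flfl 13 or OMP_IGF1R 17, 2 without IGF1R_flfl 3 or OMP_IGF1R 11, and 1 without IGF1R_flfl 1, OMP_IGF1R 12 or OMP_IGF1R 18. Of all genes 2.17% to 5.52% were called lower in these fits. Across them the median log2 fold change of the tested members lay between -0.39 and -0.21. All 6 called genes had a negative estimate in each of the fits in which they were tested. Just outside the threshold lay Olfr774 (log2 fold change -0.89, edgeR adjusted p = 0.0501), with 0.869, 1.26, 0.954 and 0.833 CPM under the IGF1R_flfl title against 0.459, 0.452, 0.531 and 0.653 CPM under the OMP_IGF1R title, without overlap. Olfr774 was chosen after its values were seen.

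**Figure D3:**
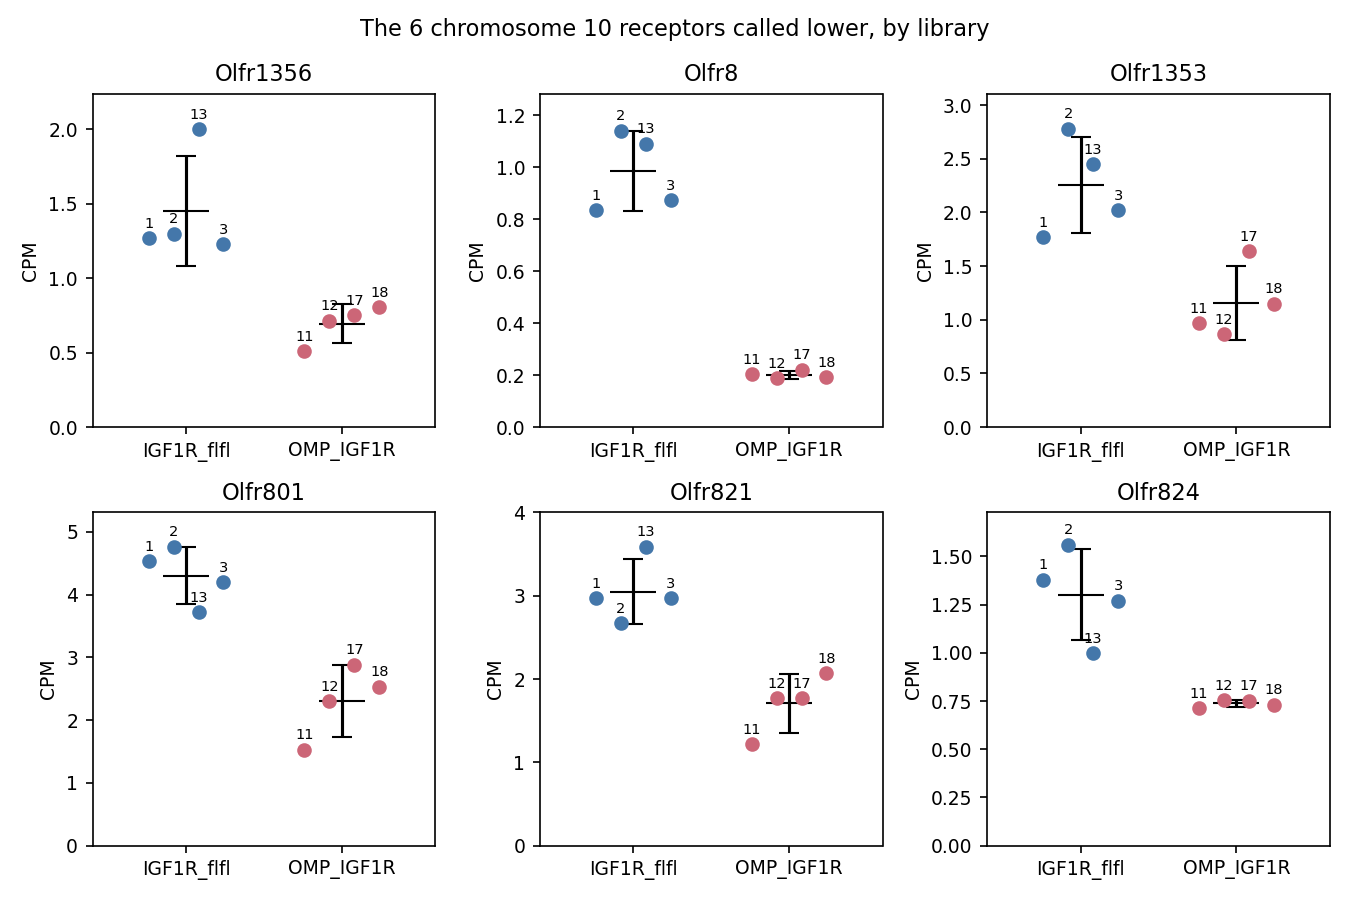
CPM of the 6 genes called lower in each library (points, numbered by replicate) with the group mean and SD (bars, n = 4), each axis starting at 0. In each panel the 4 OMP_IGF1R libraries lie below the 4 IGF1R_flfl libraries, and Olfr8 has group means of 0.985 and 0.201 CPM, the largest fold difference of the 6.

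The authors' deposited table listed all 67 genes, 39 of them with an adjusted p. Of these, 5 had an adjusted p under 0.05, all with a negative log2 fold change: Olfr801, Olfr821, Olfr1353, Olfr1354 and Olfr1356. Over the 15891 genes with an adjusted p in the authors' deposited table, 8.43% had one under 0.05 with a negative and 4.93% with a positive fold change. In the authors' deposited table the sign was the same as in the edgeR fit for all 54 genes tested here. Its fold changes were smaller, for example -0.64 for Olfr801.

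Near copies did not always share the sign of their estimate. Of the 18 pairs at 95% identity or more, 8 had both genes tested, and in 4 of these the estimates had opposite signs. With 42 of the 54 tested genes negative, pairs that are not near copies also differ in sign at times. The count was not tested against such pairs. Olfr823, the copy of Olfr824, measured 0.76, 0.343, 0.863 and 0.634 CPM under the IGF1R_flfl title against 0.867, 0.641, 1.02 and 0.691 CPM under the OMP_IGF1R title. The groups overlapped (log2 fold change 0.30, SE 0.307, edgeR adjusted p = 0.603). Reads of Olfr823 were 0.22 to 0.864 times those of Olfr824 in IGF1R_flfl and 0.85 to 1.35 times in OMP_IGF1R, and the difference between the 2 genes' estimates was not tested. Olfr825 and Olfr826, 96.3% identical, had log2 fold changes of -0.72 (SE 0.311) and 0.50 (SE 0.436), neither past the threshold (edgeR adjusted p = 0.199 and 0.536). Olfr823, Olfr825 and Olfr826 were chosen after their values were seen.

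Levels of different genes were compared as CPM per kb of exon within the deposited bounds. By this measure Olfr788 (8.78), Olfr820 (7.38) and Olfr805 (4.95), all of cluster 2, led the 67 genes, and the median of the tested genes was 1.28. Olfr1354, Olfr801, Olfr1352, Olfr777, Olfr794, Olfr786 and Olfr771 followed between 3.59 and 3.17, an order within the spread over libraries. The 10 genes together took 42.1% of the reads on chromosome 10 receptors. Among them Olfr801 was the sole gene called.

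The 2 most abundant genes had the same direction of estimate, without a call. Olfr788 measured 9.52, 10.3, 8.18 and 8.25 CPM under the IGF1R_flfl title against 6.73, 5.35, 6.72 and 10.6 CPM under the OMP_IGF1R title (log2 fold change -0.30, edgeR adjusted p = 0.404). Olfr820 measured 8.58, 8.08, 9.27 and 9.32 CPM against 5.82, 4.90, 7.79 and 8.87 CPM (-0.36, edgeR adjusted p = 0.257). For both genes OMP_IGF1R 18 lay within or above the IGF1R_flfl libraries, and the other 3 OMP_IGF1R libraries lay below all of them. Olfr805 had means of 5.05 ± 0.69 and 4.45 ± 0.481 CPM (SD, n = 4; -0.18, edgeR adjusted p = 0.474), and Olfr786 of 3.6 ± 0.852 and 2.37 ± 0.42 CPM (-0.60, edgeR adjusted p = 0.12).

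Olfr777, Olfr794 and Olfr771 had estimates of 0.35, 0.15 and -0.02, each with overlapping groups (edgeR adjusted p = 0.481, 0.877 and 0.97). In Olfr794 the OMP_IGF1R libraries ran from 1.07 CPM in 11 to 6.53 CPM in 18, and the IGF1R_flfl libraries from 2.46 to 3.32 CPM. Olfr827, the last gene of cluster 2, ranged from 1.14 to 2.13 CPM in IGF1R_flfl and from 0.663 to 1.73 CPM in OMP_IGF1R (-0.64, edgeR adjusted p = 0.26). Olfr9, the first, had 8.5 reads on average and was not tested. The highest estimate was that of Olfr807, chosen after its values were seen, with 0.145, 0.495, 0.409 and 0.634 CPM under the IGF1R_flfl title against 0.918, 0.641, 0.664 and 0.73 CPM under the OMP_IGF1R title (0.80, SE 0.378, edgeR adjusted p = 0.238). Its groups did not overlap, but IGF1R_flfl 3 (0.634 CPM) came close to OMP_IGF1R 12 (0.641 CPM).

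These genes also varied between libraries of the same title. The highest over the lowest library within a group had a median over the 54 genes of 1.81 in IGF1R_flfl and 1.84 in OMP_IGF1R. The maxima were 5.02 for Olfr815 and 8.06 for Olfr782. Olfr815 had 3 reads in IGF1R_flfl 1 and Olfr782 had 3 reads in OMP_IGF1R 18, each the lowest, so these ratios include counting noise. Olfr815 and Olfr782 were chosen after their values were seen. IGF1R_flfl 1 held the lowest value of its group for 33 of the 54 genes. In the other group OMP_IGF1R 12 held the lowest value for 24, OMP_IGF1R 11 for 14, OMP_IGF1R 18 for 11 and OMP_IGF1R 17 for 5. The highest value lay in OMP_IGF1R 17 for 22 genes and in OMP_IGF1R 18 for 20. In cluster 1 IGF1R_flfl 1 was lowest for 5 of 7 genes and OMP_IGF1R 12 for 5 of 7.

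The genes that were lowest in IGF1R_flfl 1 did not all behave alike in the other group. For 10 of them, all in cluster 2 (Olfr781, Olfr782, Olfr792, Olfr800, Olfr808, Olfr812, Olfr813, Olfr815, Olfr819 and Olfr822), OMP_IGF1R 18 was also the lowest of its group. Olfr822, chosen after its values were seen, measured 0.29, 0.838, 0.999 and 1.31 CPM under the IGF1R_flfl title against 1.99, 0.641, 1.46 and 0.461 CPM under the OMP_IGF1R title. For 18 others, 5 of them in cluster 1, OMP_IGF1R 12 was the lowest. A further 13 genes, among them Olfr788, Olfr820, Olfr821 and Olfr1356, were highest in OMP_IGF1R 18 and not lowest in IGF1R_flfl 1.

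Markers of epithelial zones varied over the same libraries. Nqo1, an enzyme of neurons in the dorsal zone, measured 131, 303, 320 and 334 CPM under the IGF1R_flfl title against 313, 136, 273 and 153 CPM under the OMP_IGF1R title, low in IGF1R_flfl 1 and in OMP_IGF1R 12 and 18. Acsm4, another dorsal enzyme, measured 247, 451, 398 and 447 CPM against 586, 371, 484 and 365 CPM, and was low in the same libraries. Neither passed the test between the groups (edgeR adjusted p = 0.626 and 0.562). With the log2 CPM of Nqo1 as a covariate, an alternative chosen after seeing the data, 3 members were called lower (Olfr8, Olfr801 and Olfr821), and 0 higher, beside 3.35% and 1.74% of all genes. Without IGF1R_flfl 1 and OMP_IGF1R 18, also chosen after seeing the data, 1 member was called lower and 0 higher, beside 0.529% and 0.339% of all genes. With the Nqo1 covariate, Olfr1356, Olfr1353 and Olfr824 had edgeR adjusted p-values of 0.0626, 0.0759 and 0.0594. Without IGF1R_flfl 1 and OMP_IGF1R 18 their edgeR adjusted p-values were 0.116, 0.135 and 0.192. These markers were chosen after their values were seen, and the part of the dissected zones in the results was not tested.

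**Figure D4:**
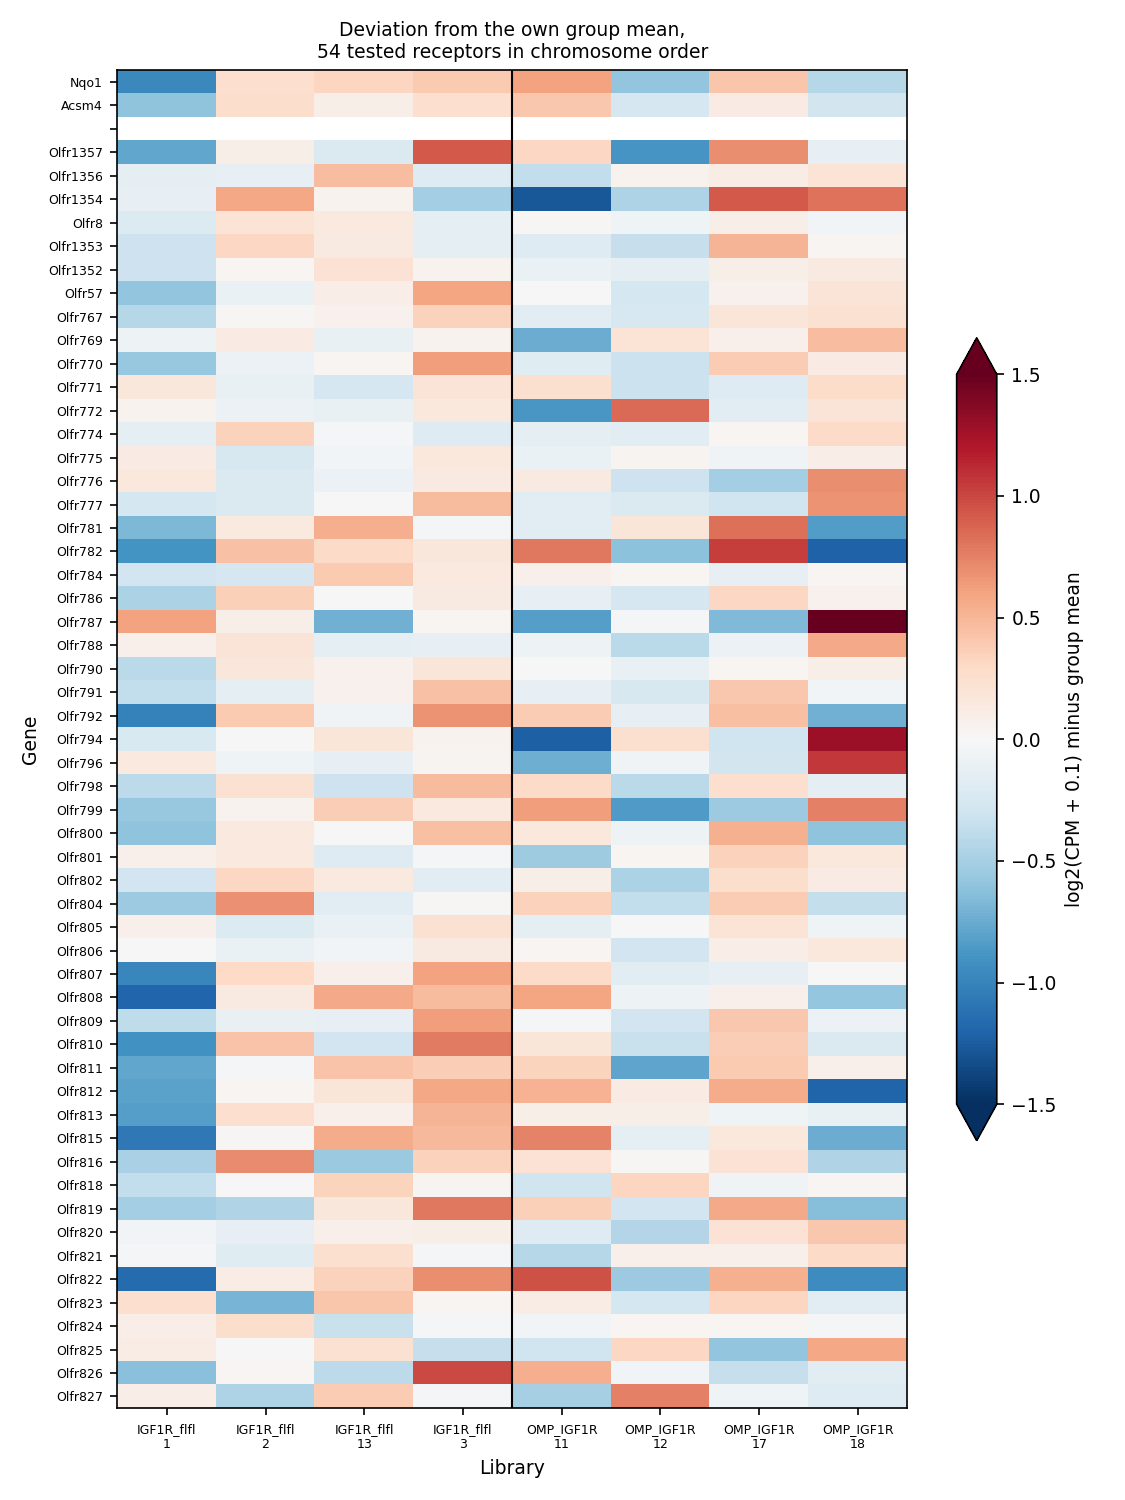
Deviation of each library from the mean of its own group, as log2(CPM + 0.1), for the 54 tested genes in chromosome order and, at the top, for Nqo1 and Acsm4. Red is above and blue below the group mean, and the black line splits the groups. IGF1R_flfl 1 is below its group mean for 40 of the 54 genes, and OMP_IGF1R 12 for 38.

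Several of the cell type marker lists moved between the groups too. Over all tested genes, 5.37% were called lower and 2.83% higher (edgeR). Of the mature olfactory sensory neuron list 14 of 16 genes fell and 0 rose (edgeR), with summed levels of 15672 to 21744 CPM in IGF1R_flfl and 9302 to 10758 CPM in OMP_IGF1R. The basal progenitor list rose in 10 of 11 genes and the immature neuron list in 8 of 12, with summed levels of 145 to 170 against 245 to 308 CPM and of 1313 to 1458 against 1818 to 2026 CPM. Of the sustentacular, gland and immune lists, 0 of 10, 0 of 7 and 0 of 7 tested genes were called by edgeR, and 0 by DESeq2 or limma voom, while 1, 2 and 2 had an unadjusted edgeR p under 0.05. All 7 estimates of the immune list were positive, with a median log2 fold change of 0.36. In the horizontal basal cell list 2 of 7 tested genes rose (28.6%), and in the ciliated cell list 2 of 5 fell (40.0%), with all estimates of a list on the same side. DESeq2 and limma voom each called 4 and 3 genes of these lists. Of the bulb and oligodendrocyte list 1 of 11 fell, and of the muscle list 1 of 5 rose. No gene of these lists was at 0 in all libraries. IGF1R_flfl 2 stood apart for Mbp, a myelin protein chosen after its values were seen, at 1003 CPM. OMP_IGF1R 17 stood apart for Acta1, a muscle actin, at 82.5 CPM. Without both libraries, an alternative chosen after seeing the data, 3 members were called lower (Olfr8, Olfr801 and Olfr1353), and 0 higher, beside 4.84% and 2.62% of all genes, and the median of the tested members was -0.31. The part of cell composition in the receptor results was not tested.

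Genes that act in receptor choice and expression mostly did not pass the test. Of the 24 genes of that list 2 fell (8.33%, beside 5.37% of all tested genes): Rtp2 (392 ± 35.9 against 275 ± 22.1 CPM, SD, n = 4; log2 fold change -0.51, edgeR adjusted p = 0.00918) and Rtp1 (621 ± 48.9 against 464 ± 40.9 CPM; -0.42, edgeR adjusted p = 0.019), which carry receptors to the cell surface. By edgeR 0 rose, and the list's median was 0.00, beside -0.01 for all genes. Kdm1a, a histone demethylase of receptor choice, and Reep1, a partner of the transport proteins, had estimates of 0.22 and -0.37 (edgeR adjusted p = 0.0635 and 0.113). Of 17 tested genes of odour transduction, the steps after the receptor, 11 fell (64.7%) and 0 rose, with a median of -0.61. All of the 11 except Ric8b and Pde4a are also in the mature olfactory sensory neuron list, so the 2 lists are not separate results.

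Of the tested genes beside the receptors 2 were called, both lower, while 5.37% of all tested genes were called lower and 2.83% higher. Casp14, Ccdc105 and Slc1a6 lay among the receptors of cluster 1, and none of them passed the filter on low counts. No other gene lay inside cluster 2. Of the 20 nearest tested genes on the sides of cluster 1, 1 was called, Hcn2, a hyperpolarization-activated channel (-0.71, edgeR adjusted p = 0.0126), the 10th gene after the cluster. Of the 11 around cluster 2, 1 was called, Gdf11, a secreted growth factor (-0.50, edgeR adjusted p = 0.0211), the 5th gene before it. Of these 11 genes 10 lay before the cluster. The 1 after it, Neurod4, a neurogenic transcription factor chosen after its values were seen, had an estimate of 1.11 (edgeR adjusted p = 0.0635). Over the 773 tested genes of chromosome 10 that are not receptors, 40 were lower (5.17%) and 24 higher (3.1%), with a median of 0.01.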

How the data were processed

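Count values in the deposited count table are whole numbers per gene and library, not normalized, as the values show. Per the submitters' processing notes, the tools were TopHat2 (2.0.14), Trim Galore (0.3.7), DESeq2 and SAMtools (1.2), on the build GRCm38 or mm10. The DESeq2 version, the counting step and its strand setting were not given in the sources used here. Per the file headers, the authors' second table gives each gene a mean normalized signal, a log2 fold change, its standard error, a score and a p-value, raw and adjusted. The authors' values served as a description only.

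Libraries were grouped by title. All 17381 genes that passed filterByExpr were tested with edgeR 4.0.16 (TMM, quasi-likelihood F-test, R 4.3.3), with Benjamini-Hochberg adjustment over all of them and a threshold of 0.05. CPM uses TMM effective library sizes, and an SE is the log2 fold change divided by the square root of F. Before averaging, libraries of a group were compared by a chi-square of their counts, which was 11.4 to 103 per gene, far above sampling noise. The title numbers fall in separate ranges for the groups (35138 to 35141 and 35156 to 35159), so a batch that follows them cannot be told apart from the group. The members and gene lists were chosen with earlier results of these data known. Named members are those called, the 10 with the highest CPM per kb and those at the ends of a cluster; of a list, up to 4 genes with the smallest p. Others are said to be chosen after their values were seen.

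Coding sequence was the longest open reading frame among a gene's GENCODE M21 transcripts, and identity came from global alignment (Biopython 1.88). Alternatives were RLE size factors, scaling to receptors outside chromosome 10, 2 other filters, DESeq2 1.42.0, limma voom (3.58.1) with sample weights, each library left out, and those said to be chosen after seeing the data. The fits were tested on simulated data. At these depths the least abundant tested members rest on about 10 reads per library, so their fold changes are less precise than those of abundant genes.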

Additional observations from a re-analysis of the deposited data

Results flagged for a closer look

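Outliers were sought in 72 groups of 4 libraries, for named members and for library measures, most of them given above. In 6 groups a library lay far from the other 3, by an outlier test that chance passes in about 1 of 20 groups. Olfr1356 stood at 2.0 CPM in IGF1R_flfl 13, with the others at 1.23 to 1.3 CPM. Olfr777 stood at 5.38 CPM in OMP_IGF1R 18, with the others at 2.7 to 2.96 CPM. Nqo1 stood at 131 CPM in IGF1R_flfl 1, with the others at 303 to 334 CPM. Mbp stood at 1003 CPM in IGF1R_flfl 2 (others 38.5 to 42.4 CPM) and at 67.6 CPM in OMP_IGF1R 11 (others 40.6 to 44.1 CPM), and Acta1 at 82.5 CPM in OMP_IGF1R 17 (others 0.452 to 0.922 CPM).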

How the results depend on the processing

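Scaled to receptors outside chromosome 10, 1 member was called lower and 5 higher, all genes called rose from 1425 to 12751, the members' median turned to 0.19, and Olfr788 (0.19), Olfr820 (0.13), Olfr805 (0.32), Olfr1352 (0.19), Olfr771 (0.49), Olfr1357 (0.39) and Olfr57 (0.37) turned positive. As a share of all receptor counts the ratio of sums turned to 1.11. Limma voom turned Olfr771 (0.045), Olfr1357 (0.022) and Olfr57 (0.063). Leaving out 1 library gave 1 to 4 members called lower, 569 to 1477 genes in all, and turned the sign in some fits of Olfr794 (-0.46 to 0.43), Olfr771 (-0.12 to 0.090), Olfr1357 (-0.37 to 0.30) and Olfr57 (-0.32 to 0.11). Without IGF1R_flfl 1 and OMP_IGF1R 18 together, chosen after seeing the data, 1 member (beside 0.529% of all genes lower) and 151 genes in all were called, with Olfr777 at -0.036 and Olfr794 at -0.53. Without IGF1R_flfl 2 and OMP_IGF1R 17 together 3 members were called, with Olfr771 at 0.021 and Olfr823 at -0.035. With Nqo1 as a covariate 3 members and 886 genes were called, with Olfr794 at -0.19, Olfr1357 at 0.20 and Olfr57 at 0.034. With 5 neighbours on each side 1 was called in place of 2. The cause of these changes was not tested, and some of the alternatives held fewer libraries or genes. Of 384 comparisons of the 23 named members with an alternative, 359 had the same direction as first given. The 6 called members lost their call in 50 of their 100 comparisons. No member has -ps in its symbol, so that alternative changed nothing. No paired analysis was possible because the groups share no replicate numbers.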
